A study of Mus musculus with 9 samples.

Results

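The genes described here are 10 genes of MHC class I antigen presentation in mouse cardiomyocytes: Nlrc5, H2-K1, H2-D1, H2-T23, H2-Q4, B2m, Tap1, Tapbp, Psmb8 and Psmb9. They were taken by symbol from a count table of 15824 genes, and all 10 were present. The 9 libraries were made from ribosomal-RNA-depleted total RNA of cardiomyocytes of outbred CD-1 mice at postnatal day 1 (P1), day 14 (P14) and day 56 (P56), with 3 libraries an age. P1 libraries pooled 12 hearts each, and P14 and P56 libraries pooled 6 to 7 hearts each. No label names a treatment or a genetic change in any library, although the shared protocol text mentions surgery. That text describes both dissociated whole cardiomyocytes and sorted nuclei carrying Pcm1, a centrosomal protein found on the nuclear surface of cardiomyocytes, and it does not settle which gave these libraries. Age was the only factor compared, so the comparisons show how the 10 genes differed between newborn, juvenile and adult preparations.

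MHC class I molecules show peptides from inside a cell to cytotoxic T cells. A heavy chain pairs with β2-microglobulin (B2m) in the endoplasmic reticulum and is loaded with a peptide that the proteasome cut and the TAP transporter carried in. NLRC5 is the transactivator of these genes: it binds no DNA itself and acts through a protein complex assembled on the S, X and Y boxes of their promoters. The pathway is induced by interferons, is high in leukocytes and endothelium, and is known to be low in cardiac muscle, so markers of those other cells stand beside the results.

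Promoter sequence is shown first, because the complex is known to assemble on short boxes there, and H2-K1, H2-D1 and B2m share a pair of motifs at the same spacing. The RefSeq table (GRCm38.p6) held promoters for 9 of the 10 genes. Each line gives 30 bases on the strand of the gene, and the capitals mark TGACG, the core letters of an X2 or CRE site, and ATTGG, the letters of the CCAAT box on the opposite strand.
H2-K1: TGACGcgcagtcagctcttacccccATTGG
H2-D1: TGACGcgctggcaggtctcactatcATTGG
B2m: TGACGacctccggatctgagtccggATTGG
H2-Q4: tgacttactggcagttctcacccccATTGG
These stretches lie at chr17:34000359-34000388 on the minus strand for H2-K1, chr17:35262993-35263022 on the plus strand for H2-D1, chr2:122147609-122147638 on the plus strand for B2m, and chr17:35379513-35379542 on the plus strand for H2-Q4. In H2-K1, H2-D1 and B2m exactly 20 bases separated the capitals. H2-Q4 has the ATTGG at that place but not the TGACG, and its TGACG lies downstream. Among 32851 RefSeq promoter windows of 250 bases, 0.0913% held TGACG and ATTGG in this order with 20 bases between them, counting both strands, a spacing set after these sequences had been read. Either motif alone is common: TGACG was in 17.8% of windows and CCAAT in 33.8%.

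A longer stretch of the H2-K1 promoter shows the interferon and NF-κB elements upstream of that site. It covers 180 bases at chr17:34000348-34000527 on the minus strand and ends at the annotated start. The capitals mark, in order, GGGATTCCC (κB), TTTCACTTC (class I interferon element), TGACG and ATTGG.
H2-K1: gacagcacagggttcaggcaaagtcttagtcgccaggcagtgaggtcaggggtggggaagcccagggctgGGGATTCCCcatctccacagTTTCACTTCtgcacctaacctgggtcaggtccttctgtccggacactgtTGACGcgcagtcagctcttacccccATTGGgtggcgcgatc
H2-D1 carries the same 4 motifs, and H2-Q4 carries TTTCACTTC but no GGGATTCCC in its window. Only these exact κB letters were searched, and H2-Q4 has gggatttccc upstream of its TTTCACTTC. Other forms of a κB site were not searched in any window. TTTCACTTC occurred in 0.402% of all windows and GGGATTCCC in 0.301%, both strands counted. H2-T23 and B2m instead matched TTTCNNTTT, which 9.37% of windows held. Tap1 and Psmb9 are transcribed away from each other from 1 stretch of DNA, so their TGACG and CCAAT matches are shared. Tapbp held CCAAT alone, and Psmb8 matched none of the motifs searched. RefSeq starts lay 3579 bases inside the GENCODE gene for Tapbp, 474 for Psmb8, 434 for Psmb9, 364 for H2-D1 and 154 for H2-T23. Windows at the GENCODE starts of these genes were not searched. A match of letters is a description of the window and not a measured binding site.

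Total counts ranged from 49190887 to 58538025 at P1, from 36619799 to 38878181 at P14 and from 45866453 to 49535917 at P56. Levels are given as CPM, counts scaled to the size of the library with edgeR's TMM factors, and the libraries of an age are named by replicate number. P56 replicate 1 stood apart. In it, 13 of 12806 genes with a mean of at least 1 CPM lay at least 4-fold below both other P56 libraries, against 0 to 2 genes in each of the other 8 libraries, by a rule set after the data were seen. The 13 included Nlrc5, Tap1 and Psmb9, and also Iigp1, Irgm1 and Irgm2, which encode interferon-induced GTPases, and Cd274, which encodes PD-L1. Iigp1 stood at 28.4 CPM in P56 replicate 1, 371 in replicate 2 and 252 in replicate 3. Results with P56 are therefore given with and without that library. Markers of cardiomyocytes were abundant at every age, summing to between 54170 and 96312 CPM over 14 genes, and markers of other cells were also present at every age.

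**Figure D1:**
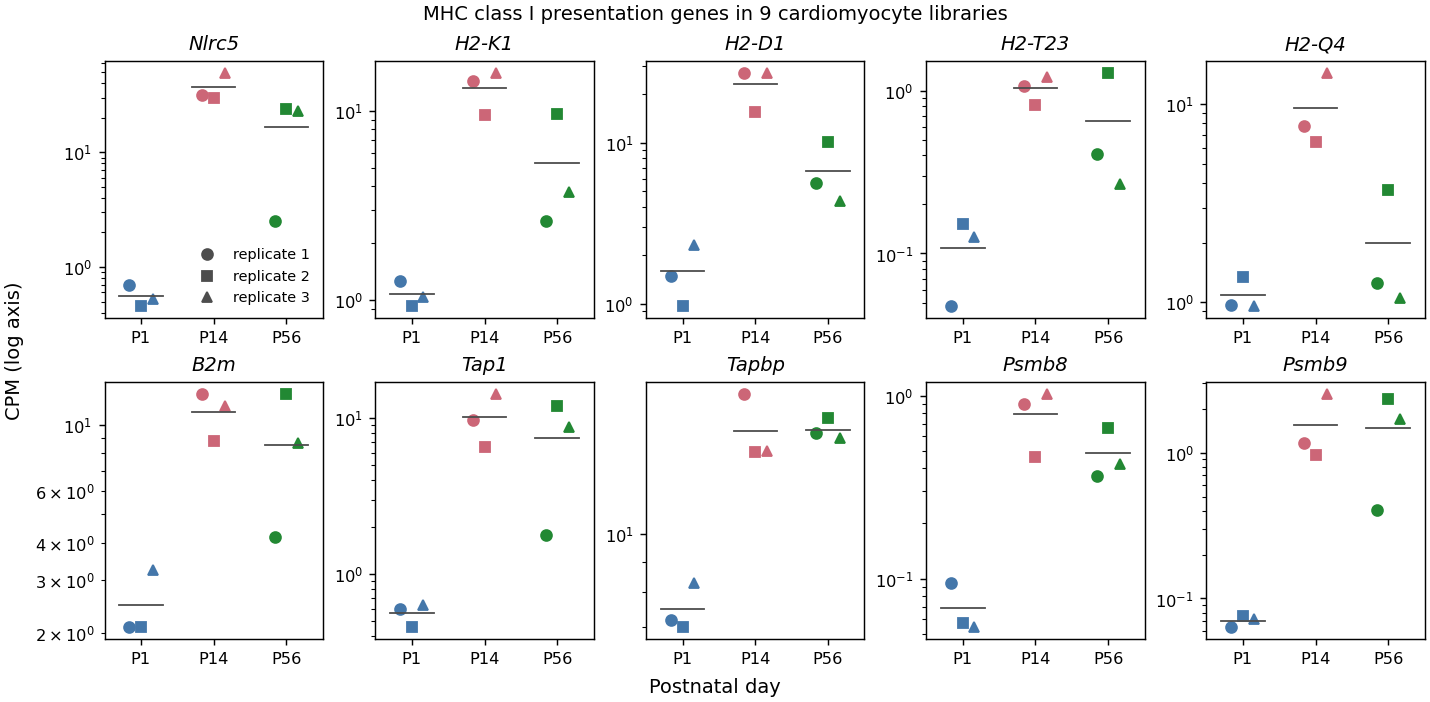
CPM (log axis) of each of the 10 genes in the 9 libraries, one panel a gene, with points for libraries and bars for the age means. Every P14 library lies above every P1 library in all 10 panels, and P56 replicate 1 is the lowest P56 library for Nlrc5, H2-K1, B2m, Tap1, Psmb8 and Psmb9.

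Between P1 and P14 all 10 genes rose, by 1.98-fold for Tapbp to 65.1-fold for Nlrc5 as fitted. Their median log2 change was 3.54, and that of all 15817 genes tested was 0.00. Of all genes tested, 28.4% were called higher at P14 by edgeR's quasi-likelihood test with a Benjamini-Hochberg adjusted p under 0.05, and 31.0% had every P14 library above every P1 library. All 10 members met both conditions. In preparations of many cells, more cells of another type that express a gene and more of its RNA per cell cannot be told apart. Between P14 and P56, 3 of the 10 fell (H2-K1, H2-D1 and H2-Q4) and none rose, where 28.5% of all genes tested were called lower. None was higher at an unadjusted p under 0.05 in edgeR or by DESeq2's adjusted p. At P56, 9 of the 10 were still higher than at P1, against 30.9% of all genes tested, and H2-Q4 was the exception. The members were chosen with earlier results of these data known, so these counts describe them and are not a test of the list. Nothing in the labels says whether the pools of an age came from separate litters or preparations, and the p-values measure only the spread between these libraries.

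Nlrc5 (ENSMUSG00000074151; GRCm38 chromosome 8, 94434356 to 94527272, plus strand) encodes the class I transactivator and showed the steepest rise of the 10. At P1 it stood at 0.696, 0.455 and 0.522 CPM in replicates 1 to 3. At P14 it stood at 31.5, 29.7 and 49.4 CPM. At P56 it stood at 2.51, 23.9 and 23.1 CPM. The P14 libraries were all far above the P1 libraries, and every P56 library lay between these ages, with replicate 1 far below the other P56 libraries. The log2 change from P1 to P14 was 6.03 ± 0.79 (SE; adjusted p = 0.00016, edgeR's quasi-likelihood test). From P14 to P56 it was -1.16 ± 0.59 (adjusted p = 0.12), which did not pass the threshold although the libraries did not overlap. Without P56 replicate 1 the same change was -0.65 (adjusted p = 0.029), smaller and past the threshold. Nlrc5 at P56 was above P1 by 4.87 ± 0.77 on the log2 scale (adjusted p = 0.00035), and by 5.38 without P56 replicate 1. The 3 P56 libraries differed 9.51-fold from lowest to highest, and 0.297% of genes had a ratio as large at that age, against 1.66-fold at P14 and 1.53-fold at P1. Nlrc5 shares 78 exon bases with the antisense transcript 9330175E14Rik, and the sources used here do not give the strand setting of the counting.

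The classical heavy chains H2-K1 and H2-D1 present peptides to CD8 T cells, and they lie on chromosome 17 in the H2 complex. H2-K1 (ENSMUSG00000061232, 33996017 to 34000347, minus strand) stood at 1.26, 0.929 and 1.04 CPM at P1. It stood at 14.5, 9.49 and 15.9 CPM at P14 and at 2.63, 9.62 and 3.72 CPM at P56. P56 replicate 2 reached the lowest P14 library, and the other P56 libraries lay between the P1 and P14 values. H2-K1 rose by 3.62 ± 0.46 (log2; adjusted p = 0.00013) from P1 to P14 and then fell by 1.32 ± 0.41 (adjusted p = 0.019). Without P56 replicate 1 the fall was -1.002 (adjusted p = 0.044), and without P56 replicate 3 it was -1.12 and did not pass (adjusted p = 0.071).

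H2-D1 (ENSMUSG00000073411, 35262730 to 35267499, plus strand) stood at 1.49, 0.967 and 2.32 CPM at P1. Its P14 libraries held 27.3, 15.5 and 27.3 CPM and its P56 libraries 5.62, 10.2 and 4.34 CPM. No 2 ages overlapped. The rise was 3.87 ± 0.41 (log2; adjusted p = 3.9e-05) and the later change -1.80 ± 0.36 (adjusted p = 0.0022), or -1.69 (adjusted p = 0.0095) without P56 replicate 1.

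The nonclassical heavy chains H2-Q4 and H2-T23 had fewer counts in all than H2-K1 and H2-D1 at P14 and P56. At P1 H2-Q4 was level with H2-K1, at 185 and 187 counts in all. H2-Q4 (ENSMUSG00000035929, 35379617 to 35385290, plus strand) belongs to the Q region of the complex. It stood at 0.964, 1.35 and 0.955 CPM at P1, at 7.69, 6.44 and 14.3 CPM at P14 and at 1.25, 3.67 and 1.05 CPM at P56. Its P56 libraries lay wholly below those of P14 and overlapped those of P1. H2-Q4 rose by 3.12 ± 0.48 (log2; adjusted p = 0.00045) and then had a change of -2.25 ± 0.46 (adjusted p = 0.0025), or -2.01 (adjusted p = 0.0096) without P56 replicate 1. Its difference between P56 and P1 was 0.87 ± 0.49 (adjusted p = 0.15). H2-Q4 shares 496 exon bases with the antisense gene Gm11131.

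H2-T23 (ENSMUSG00000067212, 36029773 to 36032855, minus strand) encodes the heavy chain of Qa-1, the mouse ligand of CD94/NKG2 receptors. It had 18 counts in all at P1, at 0.047, 0.152 and 0.126 CPM. Levels were 1.07, 0.811 and 1.21 CPM at P14 and 0.408, 1.29 and 0.267 CPM at P56. The P14 libraries were above all P1 libraries, and the P56 libraries spanned the P14 range and reached below it. The rise was 3.25 ± 0.63 (log2; adjusted p = 0.0017), and the change from P14 to P56 was -0.66 ± 0.51 (adjusted p = 0.30). That change was -0.42 (adjusted p = 0.55) without P56 replicate 1. It was -1.61 (adjusted p = 0.0098) without P56 replicate 2, so 1 library decided the call.

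At P56 the 4 heavy chains were all highest in replicate 2, and in replicate 3 H2-D1, H2-T23 and H2-Q4 were at their lowest of that age although Nlrc5 in replicate 3 was as high as in replicate 2. Heavy chain genes vary strongly between mouse strains and resemble each other. CD-1 mice are outbred and the reads were mapped to GRCm38, so reads of other alleles can be lost or assigned to a neighbouring H2 gene. The part of this in the values above was not tested, and the split of counts among H2-K1, H2-D1, H2-T23 and H2-Q4 is uncertain.

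B2m (ENSMUSG00000060802; chromosome 2, 122147686 to 122153083, plus strand) lies outside the H2 complex and encodes the light chain that all of these heavy chains share. It stood at 2.09, 2.08 and 3.26 CPM at P1, at 12.6, 8.81 and 11.5 CPM at P14 and at 4.19, 12.7 and 8.67 CPM at P56. The P14 libraries lay above all P1 libraries, and the P56 libraries overlapped those of P14. B2m rose by 2.15 ± 0.36 (log2; adjusted p = 0.00075). It had a change of -0.37 ± 0.34 (adjusted p = 0.38) from P14 to P56, or -0.05 without P56 replicate 1.

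Tap1 (ENSMUSG00000037321; chromosome 17, 34187553 to 34197225, plus strand) encodes one chain of the TAP peptide transporter. It stood at 0.601, 0.455 and 0.630 CPM at P1, at 9.79, 6.54 and 14.3 CPM at P14 and at 1.79, 11.9 and 8.80 CPM at P56. P56 replicates 2 and 3 lay within the P14 range and replicate 1 lay far below it. Tap1 rose by 4.17 ± 0.64 (log2; adjusted p = 0.00042). The change from P14 to P56 was -0.45 ± 0.52 (adjusted p = 0.49), and it was 0.02 without P56 replicate 1, so its sign rested on that library.

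Tapbp (ENSMUSG00000024308; chromosome 17, 33915899 to 33929292, plus strand) encodes tapasin, which bridges the heavy chain to TAP. It stood at 7.21, 6.99 and 8.29 CPM at P1, at 17.1, 13.7 and 13.7 CPM at P14 and at 14.7, 15.6 and 14.4 CPM at P56. It varied least of the 10 within P56, where its libraries differed 1.08-fold and 81.5% of genes varied as much or more. Tapbp rose by 0.99 ± 0.11 (log2; adjusted p = 6.3e-05) and then held a log2 change of 0.00 ± 0.11 (adjusted p = 0.97). The later change was 0.01 without P56 replicate 1. The exons of Tapbp overlap 149 bases of Zbtb22 and 904 bases of the antisense gene Gm19412.

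Psmb8 and Psmb9 encode the catalytic subunits β5i and β1i, which replace Psmb5 and Psmb6 in the immunoproteasome and shift its cuts towards peptides that class I binds. Psmb8 (ENSMUSG00000024338; chromosome 17, 34197721 to 34201454, plus strand) had 12 counts in all at P1, at 0.095, 0.057 and 0.054 CPM. It stood at 0.894, 0.460 and 1.02 CPM at P14 and at 0.362, 0.666 and 0.423 CPM at P56. Every P14 and P56 library lay above every P1 library, and P14 and P56 overlapped. Psmb8 shares 498 exon bases with the antisense gene Gm20496. Psmb8 rose by 3.46 ± 0.45 on the log2 scale (adjusted p = 0.00015). Its change from P14 to P56 was -0.71 ± 0.35 (adjusted p = 0.11), or -0.54 (adjusted p = 0.27) without P56 replicate 1. That change passed the threshold at -0.98 (adjusted p = 0.035) without P14 replicate 2.

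Psmb9 (ENSMUSG00000096727; chromosome 17, 34181987 to 34187764, minus strand) also had 12 counts in all at P1, 4 in each library. It stood at 0.063, 0.076 and 0.072 CPM at P1, at 1.18, 0.973 and 2.54 CPM at P14 and at 0.408, 2.34 and 1.72 CPM at P56. The P14 range and P56 replicates 2 and 3 coincided, and P56 replicate 1 lay below. Psmb9 rose by 4.42 ± 0.75 (log2; adjusted p = 0.00075) and then had a change of -0.07 ± 0.53 (adjusted p = 0.92), or 0.38 without P56 replicate 1. Psmb9 and Tap1 share 212 exon bases on opposite strands.

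**Figure D2:**
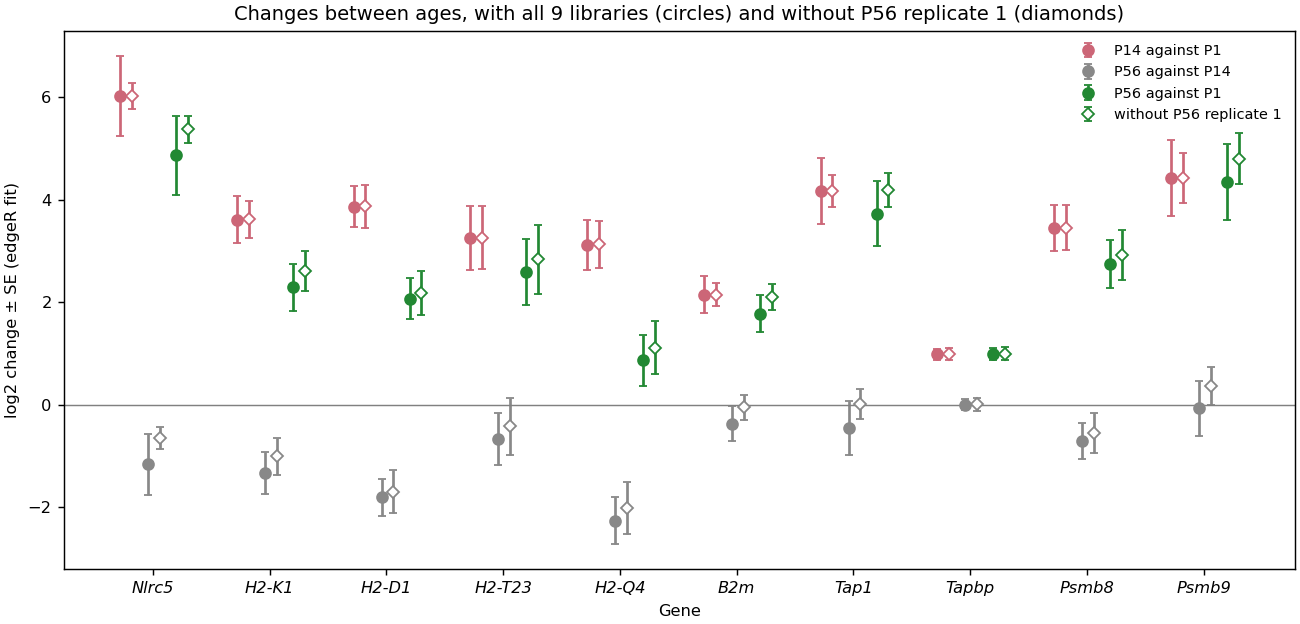
Log2 change ± SE of each of the 10 genes in 3 comparisons of ages (colours), with all 9 libraries (filled circles) and without P56 replicate 1 (open diamonds). All changes from P1 to P14 are above 0, from 0.99 for Tapbp to 6.03 for Nlrc5, and without that library the change of Tap1 from P14 to P56 sits at 0.02.

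The change after P14 was more negative than the change before it for all 10 genes, in a test of the difference between the intervals itself (26.0% of all genes tested). The difference ranged from -0.98 ± 0.19 on the log2 scale for Tapbp (adjusted p = 0.0021) to -7.18 ± 1.07 for Nlrc5 (adjusted p = 0.00054). A rise to P14 followed by no change gives a negative difference too, as for Tapbp. A negative value therefore restates the rise in part and does not by itself show a fall after P14. Both intervals share the P14 libraries, so a deviation in those libraries enters each with opposite sign. The count was 10 of 10 whichever single library was left out. Marker scores were also put in the fit, of leukocytes or of other cell types (leukocyte, endothelial, fibroblast and mural markers together). The count was 8 of 10 with either score. Tapbp then changed by -0.51 (adjusted p = 0.18) or -0.43 (adjusted p = 0.38), and H2-T23 by -3.77 (adjusted p = 0.063) or -4.32 (adjusted p = 0.083). The change after P14 ran from -2.25 for H2-Q4 and -1.80 for H2-D1 to 0.00 for Tapbp. H2-Q4, H2-D1 and H2-K1 passed the threshold, and Nlrc5, Tap1, B2m and Psmb9 did not. Whether the heavy chains fell more than the other members was not tested.

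The spread within an age was itself uneven among members. P56 replicate 2 was the highest P56 library for all 10 genes. P14 replicate 2 was the lowest P14 library for all 10, and P14 replicate 3 was the highest for Nlrc5, H2-K1, H2-T23, H2-Q4, Tap1, Psmb8 and Psmb9. Tapbp was nearly level in P14 replicates 2 and 3, at 13.71 and 13.74 CPM. The share of all genes with the same highest or lowest library was not computed. At P56 the ratio of highest to lowest library was 6.66 for Tap1, 5.74 for Psmb9, 4.81 for H2-T23, 3.66 for H2-K1, 3.51 for H2-Q4 and 3.02 for B2m. A ratio as large as that of Tap1 was reached by 0.414% of the 12806 genes with a mean of at least 1 CPM, and one as large as that of B2m by 1.91%.

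**Figure D3:**
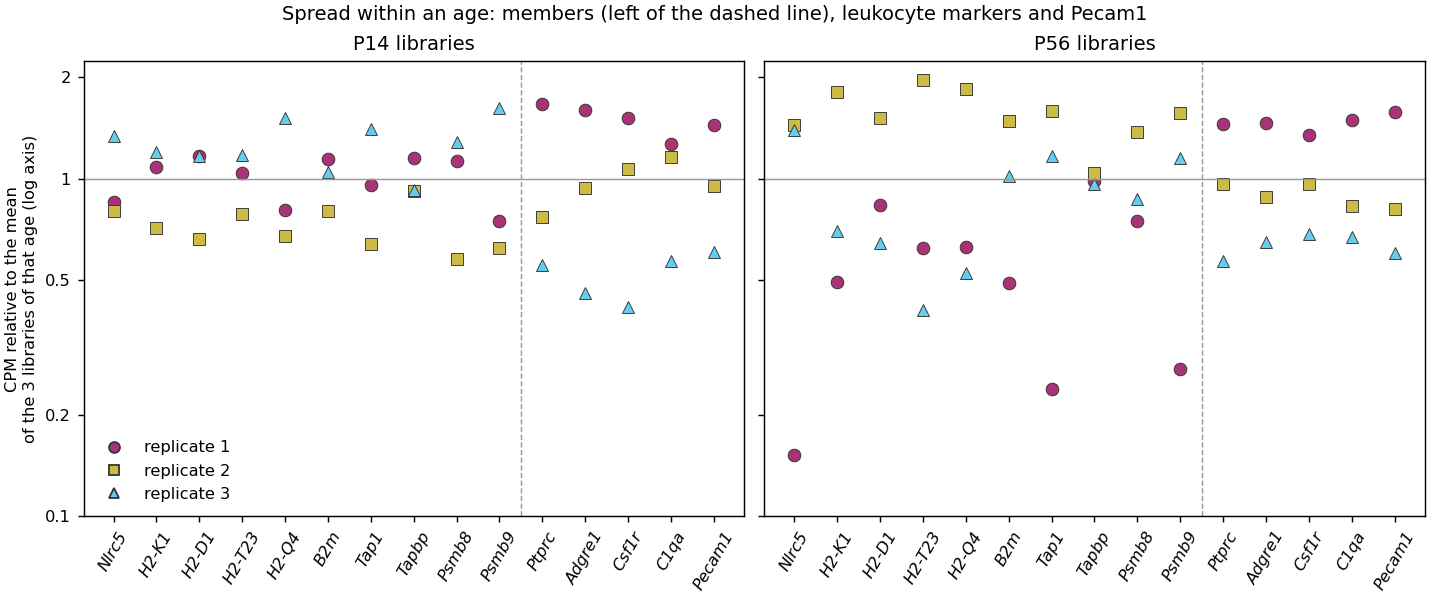
CPM of each library divided by the mean of its age (log axis), for P14 and P56, with the 10 genes left of the dashed line and the leukocyte markers Ptprc, Adgre1, Csf1r and C1qa and the endothelial marker Pecam1 right of it. P56 replicate 1 is lowest for Nlrc5, Tap1 and Psmb9 and highest for all 5 markers, and Tapbp, which differed 1.08-fold at P56, lies close to 1 in every P56 library.

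Divided by annotated exon length, which allows levels of different genes to be compared (RPKM), B2m led at each age. At P1 B2m (2.88 ± 0.79, SD, n = 3) and Tapbp (2.07 ± 0.19) were followed at a distance by H2-D1 (0.617 ± 0.265), H2-Q4 (0.419 ± 0.086) and H2-K1 (0.367 ± 0.058), whose ranges of 1 SD overlapped. Tap1 (0.103 ± 0.017) and Nlrc5 (0.0657 ± 0.0146) came next, and H2-T23, Psmb8 and Psmb9 were at or under 0.0375 RPKM. At P14 H2-D1 reached 9.05 ± 2.63 and stood behind B2m at 12.8 ± 2.3. H2-K1 (4.53 ± 1.15), Nlrc5 (4.34 ± 1.28), Tapbp (4.09 ± 0.54) and H2-Q4 (3.66 ± 1.64) followed within 1 SD of each other. Nlrc5 thus moved from the seventh place among the 10 to the fourth. At P56 B2m (9.90 ± 4.94) and Tapbp (4.11 ± 0.16) led again. H2-D1 (2.60 ± 1.19), Nlrc5 (1.94 ± 1.43), H2-K1 (1.81 ± 1.28) and Tap1 (1.37 ± 0.95) followed, with ranges of 1 SD that overlapped. Psmb9, H2-T23 and Psmb8 were the lowest at both later ages, at or under 0.427 RPKM.

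The immunoproteasome subunits were set against the constitutive subunits they replace, as ratios of counts in the same library. Psmb8 to Psmb5 was 0.0612, 0.0353 and 0.0455 at P1, then 0.538, 0.212 and 0.661 at P14, then 0.232, 0.527 and 0.352 at P56. Psmb9 to Psmb6 was 0.0125, 0.0143 and 0.0119 at P1, then 0.331, 0.220 and 0.672 at P14, then 0.102, 0.850 and 0.475 at P56. For both pairs every later library lay above every P1 library. The third inducible subunit ran otherwise: Psmb10 to Psmb7 was 0.0311, 0.0273 and 0.0285 at P1, 0.0366, 0.0242 and 0.0212 at P14, and 0.01997, 0.0194 and 0.0243 at P56. Its P56 libraries lay wholly below its P1 libraries, and P14 overlapped both. A two-sided exact permutation test of age over the 9 libraries gave p = 0.025 for Psmb8 to Psmb5, 0.0357 for Psmb9 to Psmb6 and 0.179 for Psmb10 to Psmb7, where the smallest p the design allows is 0.00357. Adjusted over the 3 ratios these were 0.0536, 0.0536 and 0.179, so no ratio passed the threshold of 0.05.

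**Figure D4:**
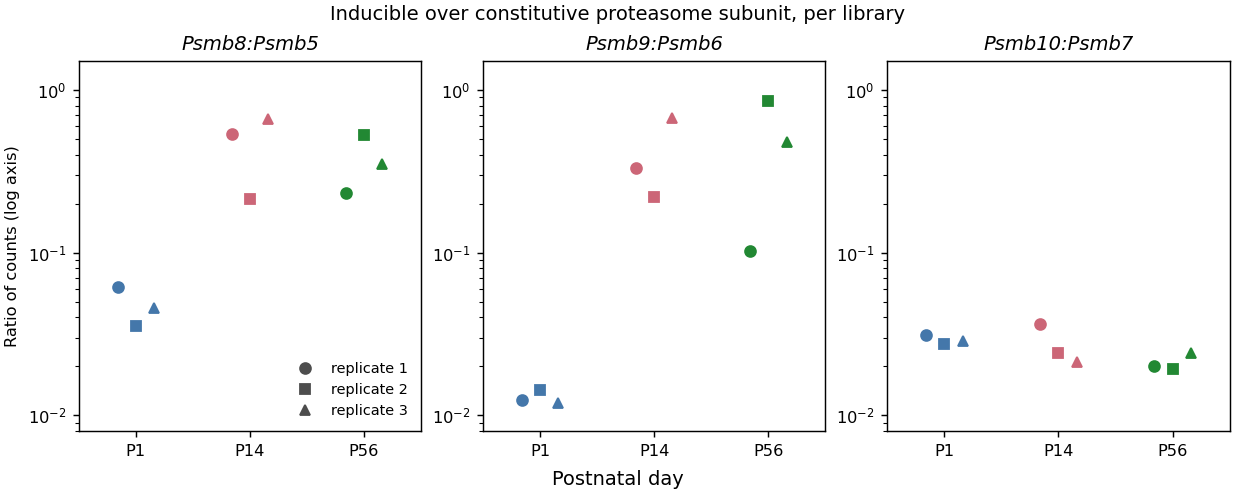
Ratio of counts (log axis) of each inducible proteasome subunit to the constitutive subunit it replaces, one point a library, by age. Psmb8 to Psmb5 and Psmb9 to Psmb6 lie above all P1 points in every P14 and P56 library, and Psmb10 to Psmb7 stays between 0.0194 and 0.0366.

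The other genes of the pathway did not move as a block. Of 9 other class I and class I-like heavy chains measured, 7 rose from P1 to P14 and 1 fell. The 7 became 2 with the leukocyte score in the fit, 4 with the score of other cell types and 3 with at least 1 CPM required in 3 libraries. H2-Q6 (log2 change 4.51), H2-T24 (3.12) and H2-M3 (2.21) rose most, and the one that fell was Cd1d1 (-3.04 ± 0.21), a lipid-presenting molecule. From P14 to P56, 2 of the 9 rose (Hfe, 1.43, and Mr1, 0.87) and 3 fell, namely Procr (-3.65), H2-T24 (-1.97) and H2-Q6 (-1.71), where 27.5% of all genes tested were called higher; with the score of other cell types none of the 9 fell. Of the 10 peptide loading and trimming genes, 3 rose and 5 fell from P1 to P14. Of all genes tested, 28.4% were called higher and 27.5% lower in that comparison. Tap2, the partner of Tap1 in the transporter, rose by 2.68 ± 0.19 and the trimming peptidase Erap1 by 0.74. The chaperones of glycoprotein folding Pdia3 (-0.66), Canx (-0.58) and Calr (-0.56) fell. Tap2 stood at 8.65, 13.5 and 10.1 CPM at P56, lowest in replicate 1 as Tap1 was, but by less.

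Few proteasome genes outside the members passed the test between P1 and P14, where 28.4% of all genes tested were called higher and 27.5% lower. Of 5 other inducible subunit and activator genes, Psme4 alone rose (1.08; 2 genes rose without P14 replicate 1), and Psmb10 (0.18, adjusted p = 0.47), Psme1 (-0.06, adjusted p = 0.70) and Psme3 (0.05) did not pass. Psme1 encodes a subunit of the PA28 activator. Of 14 constitutive 20S subunit genes 1 rose (Psmb7, 0.26) and 1 fell (Psmb6, -0.48) by P14, and 8 rose from P14 to P56 (5 with the score of other cell types), against 27.5% of all genes tested. Of 8 factors of the complex through which NLRC5 acts, none rose and 3 fell from P1 to P14, namely Creb1 (-0.50), Rfx5 (-0.48) and Nfya (-0.32), where 27.5% of all genes tested were called lower. The 3 became 1 without P1 replicate 1, P1 replicate 2 or P14 replicate 2. None of the 8 was higher at an unadjusted p under 0.05 in edgeR or by DESeq2's adjusted p, 1 was called higher with either marker score, and the other 5, with Nfyc (-0.05) and Atf1 (0.13) the most abundant, did not pass.

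Genes upstream of Nlrc5 in interferon and NF-κB signalling rose in part. Of 14 measured, 9 rose and 3 fell from P1 to P14, and the 3 became 1 without P14 replicate 2. Among all genes tested, 28.4% were called higher and 27.5% lower. Irf1, a transcription factor of the interferon response, rose by 1.74 ± 0.30 and Stat2 by 1.06, and the 3 that fell were Ifnar1 (-0.37), Jak2 (-0.26) and Tyk2 (-0.23). Irf1 stood at 1.34, 1.55 and 1.50 CPM at P1, at 6.21, 3.81 and 4.64 CPM at P14 and at 1.61, 3.83 and 2.25 CPM at P56. The lowest P56 library of Irf1 was replicate 1, the same library in which Nlrc5, Tap1 and Psmb9 were low.

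MHC class II presentation genes mark professional antigen presenting cells. Of 7 measured, 6 rose from P1 to P14, where 28.4% of all genes tested were called higher. The count was 3 with either marker score or with only these ages fitted, and 1 with at least 1 CPM required in 3 libraries. Ciita, the class II counterpart of Nlrc5, changed by 3.86 and Cd74, the invariant chain, by 3.74. H2-Aa had 1 count in all at P1 and 39 at P14, a ratio of 59.5 with an exact counting interval of 10.1 to 2411 (confidence level 95%). The summed class II level was low throughout, at 0.991 to 1.12 CPM at P1, 2.81 to 5.62 CPM at P14 and 2.85 to 5.12 CPM at P56, against summed member levels of 13.5 to 17.3, 92.4 to 151 and 33.9 to 91.8 CPM.

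Most measured markers of leukocytes also rose from P1 to P14. Of 33 listed, 16 were measured and the other 17 are not analysed here, and none of the 16 was at 0 in any library. From P1 to P14, 13 of the 16 rose and 1 fell, with a median log2 change of 2.01. Among all genes tested, 28.4% were called higher and 27.5% lower between these ages. Ptprc, which encodes CD45, rose by 1.38 ± 0.47 (adjusted p = 0.031) and the macrophage genes Adgre1 and C1qa by 2.11 ± 0.47 and 2.30 ± 0.43. From P14 to P56, 3 of the 16 fell, or 7 without P14 replicate 3, where 28.5% of all genes tested were called lower. At P56, 10 of the 16 were still higher than at P1 and 1 was lower, with a median log2 change of 1.16. Of all genes tested, 30.9% were called higher in that comparison. The 10 became 6 without P56 replicate 1 and 5 with at least 1 CPM required in 3 libraries. The summed level, led by a few genes, ran otherwise, as it overlapped between P1 and P14 and was lowest at P56. It was 55.5 to 58.7 CPM at P1, 44.3 to 79.9 CPM at P14 and 29.8 to 43.4 CPM at P56. All 15 endothelial markers rose from P1 to P14 and all 15 fell from P14 to P56, with summed levels of 92.0 to 127 CPM, 300 to 761 CPM and 53.4 to 133 CPM. Of 12 fibroblast markers 5 rose and 1 fell to P14 and 10 then fell, and of 9 mural markers 6 rose and 2 fell and 7 then fell.

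Within P14 and P56, Nlrc5 and these markers ran in different orders. P14 replicate 3 had the lowest summed leukocyte level of its age (44.3 CPM) and the lowest endothelial level (300 CPM), and the highest Nlrc5. P56 replicate 1 had the highest leukocyte (43.4 CPM) and endothelial (133 CPM) levels of its age, and the lowest Nlrc5. Other members ran with the markers in part. H2-D1, B2m, Tap1 and Tapbp at P1 followed the order of the summed endothelial level, highest in replicate 3 and lowest in replicate 2. For B2m replicates 1 and 2 were nearly level. At P14 B2m, Tapbp and, by a small margin, H2-D1 were highest in replicate 1, where both sums were highest. Counts of Nlrc5 per count of Ptprc were 0.721, 0.667 and 0.345 at P1, 6.88, 14.1 and 32.5 at P14, and 0.835, 12.0 and 19.5 at P56. This ratio was above all P1 libraries in every P14 and P56 library, narrowly so in P56 replicate 1. Of the 10 members, 7 had this ratio above all P1 libraries in every P14 library, and H2-Q4, B2m and Tapbp did not. The endothelial marker Pecam1 did so too, at 10.8, 14.0 and 8.08 at P1 and 15.9, 22.7 and 20.0 at P14. At P56 Pecam1 lay below all P1 libraries (3.50, 2.71 and 3.42). The share of all genes with such ratios was not computed, so these counts are not particular to the members. Tapbp per count of Ptprc was 7.48, 10.2 and 5.48 at P1 and 3.74, 6.50 and 9.05 at P14. At P56, 4 of the 10 (Nlrc5, H2-D1, Psmb8 and Psmb9) lay above all P1 libraries in every library. In P56 replicate 1, H2-K1 (0.872), H2-T23 (0.135), B2m (1.39), H2-Q4 (0.414), Tap1 (0.594) and Tapbp (4.89) each lay below at least 1 P1 library.

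With the mean log2 level of the leukocyte markers as a term in the fit, all 10 members were still called higher at P14 than at P1. The change was 7.75 for Nlrc5, 3.81 for H2-K1, 2.35 for B2m, 5.46 for Tap1 and 0.65 for Tapbp (adjusted p = 0.015). With the score of other cell types instead, which holds leukocyte, endothelial, fibroblast and mural markers together, all 10 were again called higher. The leukocyte markers are in both scores, so these fits are not separate checks. From P14 to P56 the leukocyte score added Nlrc5 to the genes that fell (-1.97, adjusted p = 0.011). The score of the other cell types added Nlrc5 (-3.49, adjusted p = 0.012) and Psmb9 (-2.29, adjusted p = 0.032) and took away H2-K1 (-1.80, adjusted p = 0.075) and H2-D1 (-1.60, adjusted p = 0.058). The scores themselves differ by age, so these fits separate markers from members only as far as the libraries differ within an age.

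Of 12805 other genes with a mean of at least 1 CPM, those whose log2 CPM followed Nlrc5 most closely over the 9 libraries were Parp10 (Pearson r = 0.994), Uvssa (0.991), Tap1 (0.989), Cntnap1 (0.988), BC023105 (0.987), Rnf14 (0.985), Xaf1 (0.982), Vwa3a (0.982) and Tbc1d9b (0.982). These correlations describe 9 libraries in 3 age groups, and the shares of age and of P56 replicate 1 in them were not separated. Tap1 was rank 3, Psmb9 rank 26 (0.969), B2m rank 39 (0.966) and H2-K1 rank 60 (0.957). H2-D1 was rank 433 (0.903), Tapbp rank 649 (0.877) and H2-Q4 rank 1509 (0.783), while H2-T23 and Psmb8 were below the level needed. BC023105 stood at 42.3 to 48.9 CPM at P14 and, at P56, at 0.883 CPM in replicate 1, 83.0 in replicate 2 and 62.8 in replicate 3. It thus shared with Nlrc5 both the near absence at P1 and the low level in P56 replicate 1.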

How the data were processed

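The table analysed holds raw read counts per gene, as deposited by the authors, for 9 libraries. The submitters' processing notes name featureCounts 1.4.2, GRCm38 as the build, STAR 2.4.0g1, and bcl2fastq 2.17.1.14. The sources used here do not give the strand setting, nor whether exons or whole genes were counted. No gene listed has a mean below 10 counts, so weakly expressed genes, including much of the leukocyte list, are not analysed here.

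Counts were fitted in edgeR 4.0.16 (R 4.3.3) with TMM scaling, filterByExpr (15817 genes tested, 7 removed), and a quasi-likelihood model of age over all 9 libraries. P-values were adjusted by Benjamini-Hochberg over all genes tested, with a threshold of 0.05. The SE of a log2 change is its size divided by the square root of F. The biological coefficient of variation was 13.9%. RPKM used GENCODE exon lengths. The fit was tested on simulated data. DESeq2 1.42.0, other scalings and filters, marker scores, a replicate block and each library left out were the alternatives. Same-numbered libraries of different ages were not paired in the main fit. The correlations of their deviations ran from -0.219 to 0.493, against -0.479 to 0.299 for different-numbered libraries. The highest were between P14 and P56, at 0.493 for replicate 1 and 0.364 for replicate 3. The members and gene lists were chosen with earlier results of these data known. In each list the 3 genes with the largest change in each direction, and those most abundant among the rest, were the ones open to being named. One gene of the interferon list is not reported here.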

Additional observations from a re-analysis of the deposited data

How the results depend on the processing

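Over 666 pairs of a member's result and an alternative, 645 kept direction and side of the threshold, 7 lost the call, 6 gained it and 8 changed sign. All changes of sign were in the change from P14 to P56 of genes not called there. Tapbp (0.0047) became -0.0083 with at least 1 CPM required in 3 libraries, -0.0024 with only these ages fitted, -0.050 and -0.048 without P14 replicates 2 and 3, and -0.028 without P56 replicate 2. Among these 6 omissions, Psmb9 ran from -0.55 to 0.47, Tap1 from -0.95 to 0.018 and Tapbp from -0.05 to 0.12. Psmb9 became 0.47 without P14 replicate 3 and 0.38 without P56 replicate 1, and Tap1 0.018 without P56 replicate 1. The calls that moved from P14 to P56 are given with the genes above. In the difference between the intervals, H2-T23 lost its call at a similar size with the leukocyte score (-3.77, adjusted p = 0.063) and the score of other cell types (-4.32, adjusted p = 0.083), against -3.92. Tapbp lost its call at a smaller size (-0.51, adjusted p = 0.18, and -0.43, adjusted p = 0.38, against -0.98). The cause was not tested. Psmb8 was not tested where at least 1 CPM was required in 3 libraries. With the score of other cell types in the fit, 2764 genes were called higher and 2653 lower at P56 than at P14, against 4356 and 4504 without it. With any 1 library left out, 10 members rose from P1 to P14, 2 to 4 fell from P14 to P56 and 9 were higher at P56 than at P1. The adjusted p of the ratios then ran from 0.0214 to 0.0589 for Psmb8 to Psmb5, from 0.0268 to 0.0589 for Psmb9 to Psmb6 and from 0.0464 to 0.393 for Psmb10 to Psmb7. With a replicate block, the members called were 10, 3 and 9 in the same comparisons, and Nlrc5 changed by -1.42 from P14 to P56 (adjusted p = 0.0504). At 12 to 18 counts over the P1 libraries, depth limits the size of the rise of Psmb8, Psmb9 and H2-T23.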
